A study of Mus musculus with 2 samples.

Results

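The miR-23/27/24 microRNAs (miRNAs) are made from a pair of paralogous clusters, and their mature products were examined in the muscle layers (tunica muscularis) of mouse jejunum with and without the maintenance DNA methyltransferase Dnmt1. The members were all mature entries, of either arm and of every copy, of miR-23a, miR-23b, miR-27a, miR-27b and miR-24. There were 11 of them among 1147 entries of the deposited table, of which 1080 were mature miRNAs, and no entry carried the name of one of their hairpins. The table held 1 library from *Dnmt1*-WT and 1 library from *Dnmt1*-KO mice, both at an age of 15 days. Both genotypes were on a C57BL/6 background and carried the smMHC Cre-eGFP transgene, which expresses Cre recombinase and eGFP from the *Myh11* promoter and so in smooth muscle cells. In *Dnmt1*-KO, Cre had deleted the floxed (lox/lox) *Dnmt1* alleles in those cells, while *Dnmt1* was intact in *Dnmt1*-WT. The strain entry in the labels, Tg(Myh11-cre,-EGFP)2Mik/J on a B6.Cg background with Dnmt1lox/lox, is the same for both libraries, and a free-text field of the WT library names the mutant genotype. Groups were therefore taken from the genotype entry and the titles. Since *Dnmt1* mRNA is no part of a small RNA library, the genotypes were not checked in these data. Mice of both sexes were used, and whether RNA of several animals was pooled is not given in the sources used here. The muscle was peeled from the mucosa and used whole, so the other cells of the wall were sequenced with the muscle. In bulk tissue, fewer cells of a type and less RNA per cell cannot be told apart.

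A miRNA hairpin is cut into a 5p and a 3p arm, and the arm that is loaded into an Argonaute protein pairs with target mRNAs mainly through its seed, bases 2 to 8. Each of these clusters holds a miR-23, a miR-27 and a miR-24 hairpin in that order, and the 3p products of the same name have the same or nearly the same sequence in both clusters. The family is best known from blood vessel growth, from lipid metabolism and fat cell formation, which miR-27 restrains, and from lymphocytes. miR-24 is also known for acting on cell cycle genes and on signalling by the TGF-beta family, which promotes the contractile state of smooth muscle.

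On GRCm38, the 23a cluster takes up 404 bases of chromosome 8 on the plus strand: Mir23a at chr8:84208518-84208592, Mir27a at chr8:84208672-84208758 and Mir24-2 at chr8:84208815-84208921. In GENCODE M21, Mir23a and Mir27a overlap no other gene. Mir24-2 overlaps an exon of the long noncoding RNA Gm26532 on its own strand and the hairpin Mir3074-2 on the opposite strand. The 23b cluster takes up 792 bases of chromosome 13 on the plus strand, within the aminopeptidase gene *2010111I01Rik* (*Aopep*): Mir23b at chr13:63300484-63300557, Mir27b at chr13:63300712-63300784 and Mir24-1 at chr13:63301208-63301275. Mir23b is intronic in all 9 transcripts that span it. Mir27b overlaps an exon of 1 transcript, annotated for nonsense-mediated decay, and Mir24-1 overlaps exons of 4 transcripts, none of them annotated as protein-coding. All 3 hairpins also lie antisense to an intron of the DNA repair gene *Fancc*, and Mir24-1 lies antisense to Mir3074-1.

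The sequences of the main products show which of them can be told apart. They come from the RefSeq table for GRCm38.p6, which matched 10 of the 11 members; miR-23b-3p is not printed. Capitals mark the seed.
miR-23a-3p (chr8:84208563-84208583): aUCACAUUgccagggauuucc
miR-27a-3p (chr8:84208727-84208747): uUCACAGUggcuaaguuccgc
miR-27b-3p (chr13:63300760-63300780): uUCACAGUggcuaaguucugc
miR-24-3p (chr8:84208875-84208896 and chr13:63301251-63301272): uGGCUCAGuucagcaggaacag
miR-24-2-5p (chr8:84208839-84208860): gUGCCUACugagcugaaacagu
miR-24-1-5p (chr13:63301213-63301235): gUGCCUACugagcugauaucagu
miR-27a-3p and miR-27b-3p have the same seed and differ at 1 of 21 bases (C19U, counted from the 5′ end, miR-27a-3p first). miR-24-3p is identical from both hairpins, so its reads cannot be assigned to a cluster. The 5p arms of miR-24 can be assigned, since miR-24-1-5p and miR-24-2-5p share the seed and their first 16 bases and then part. The 5p arms of miR-27a and miR-27b differ at 8 of 22 bases, the first of them (G3A) within the seed. Of the 918 mature entries with a sequence in that table, the only other entry with the seed of a listed member was miR-6413, which has the seed of miR-24-3p and was listed at 0.4 in WT and 0.2 in KO. miR-128-3p holds the miR-27 seed shifted by 1 position, at its bases 1 to 7. It was listed at 2370 in WT and 2288 in KO (2369.7 and 2287.5), a ratio of 0.965 (interval 0.911 to 1.02).

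The values are reads scaled by 1 factor per library, and 1 unit is close to 1 read. Not all values were whole reads: 14 of 963 WT values above 0 and 10 of 978 in KO were below 0.9, which is less than 1 read. They summed to 5741906 in WT and 4754677 in KO. Every interval below is a 95% interval for counting error only, since PCR copies were not marked by molecular identifiers and 1 library per genotype gives no spread between animals. All comparisons are thus between 2 libraries, and no p-value was computed. The library scale moves every KO/WT ratio by the same factor, which is 1.21 with equal library totals and 1.13 with equal totals without miR-143-3p, the muscle miRNA that dominates both libraries. It is 1.02 when the median ratio of entries averaging at least 100 is set to 1. Ratios of 2 miRNAs within a library do not depend on it.

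The 11 products summed to 232074 in WT and 181490.2 in KO. That was 4.04% of all WT reads (4.03 to 4.06%, Wilson) and 3.82% of all KO reads (3.80 to 3.83%). Nearly all of this came from 6 products that averaged at least 1000 over both libraries. miR-27b-3p alone made up 61.1% of the members' reads in WT and 64.3% in KO, and miR-24-3p made up 24.8% and 20.1%. miR-23b-3p took 6.70% and 8.89% of the members' reads, while miR-23a-3p took 4.51% and 4.20%. The order of the levels was the same in both libraries among these 6 products: miR-27b-3p, miR-24-3p, miR-23b-3p, miR-23a-3p, miR-27a-3p and miR-24-2-5p. Read numbers of different miRNAs also depend on how well each sequence takes up adapters, so this order describes libraries rather than molecules. miR-27b-3p ranked number 7 of all entries in WT and number 10 in KO.

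**Figure D1:**
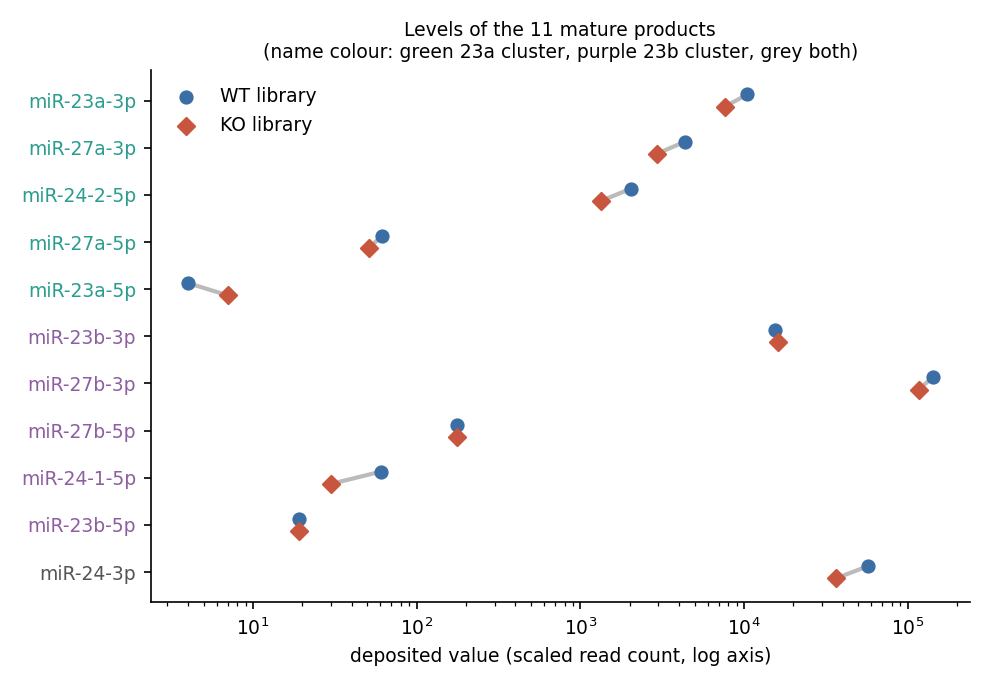
Deposited value (scaled read count, log axis) of each mature product in the WT library (blue circles) and the KO library (red diamonds), with 1 library per genotype and names coloured by cluster. The levels run from single reads for miR-23a-5p to 141807 for miR-27b-3p in WT, and the products of both clusters interleave.

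On the deposited scale, 9 of the 11 members were lower in KO and 2 were higher, where 43.9% of all entries were lower and 50.3% were higher. Among the 9, miR-27b-5p (176 reads in each library) and miR-23b-5p (19 reads in each) were ties in reads. Only the library factors placed them below 1. The interval of miR-27a-5p, also among the 9, includes 1. With equal library totals, 6 members were lower and 5 were higher, where 36.8% of all entries were lower and 63.2% were higher. At a mean of 100 or more, 6 of 7 members were lower and 1 was higher, where 52.5% and 47.5% of 316 entries were. At a mean of 1000 or more, 5 of 6 members were lower and 1 was higher, where 58.8% of the 136 entries of that abundance were lower and 41.2% were higher. The counting interval of the ratio lay wholly below 1 for 6 members and wholly above 1 for 1 member. Over all entries these shares were 14.6% and 16.7%. Among entries with a mean of 1000 or more, where 5 and 1 of the 6 members had such intervals, they were 54.4% and 39.0%, since depth alone narrows the interval of an abundant miRNA. A change of at least 2-fold was seen for 1 of the 11 members, miR-24-1-5p, and in the lower direction, where 23.1% of all entries were at least 2-fold lower. No member was at least 2-fold higher, where 26.7% of all entries were. Of entries averaging at least 10, as 10 of the 11 members did, 9.94% were at least 2-fold lower and 11.4% at least 2-fold higher. With equal totals miR-24-1-5p stood at 0.600 and was no longer 2-fold lower, while miR-23a-5p, at 4 and 7 before scaling, stood at 2.11. On that scale 19.1% of all entries were at least 2-fold lower and 31.5% were at least 2-fold higher. Of entries averaging at least 10, these shares were 5.34% and 19.5%. The members' median log2 ratio was -0.28 over 11, beside 0 over the 794 entries above 0 in both libraries. At 1000 or more it was -0.52 over 6 members, beside -0.13 over 136 entries.

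The products that belong to the 23a cluster alone were lower in KO on the deposited scale in each case with a mean of at least 10, and miR-27a-5p passed 1 with equal totals. miR-23a-3p (mmu-miR-23a-3p), the most abundant of them, was listed at 10475 in WT and 7618 in KO, a ratio of 0.727 (0.706 to 0.749). miR-27a-3p (mmu-miR-27a-3p), the lesser of the miR-27 paralogs, was listed at 4361 and 2929, a ratio of 0.672 (0.641 to 0.704). miR-24-2-5p, the minor arm of the third hairpin, was listed at 2033 and 1333, a ratio of 0.656 (0.612 to 0.703). These 3 products, 1 from each hairpin, thus lay within 0.15 log2 units of each other. They were not all alike within counting error. Within a library, miR-24-2-5p changed by a factor of 0.902 (0.836 to 0.973) relative to miR-23a-3p. Relative to miR-27a-3p the factor was 0.977, and its interval (0.898 to 1.06) includes 1. The other 5p arms were rare. miR-27a-5p was listed at 61.2 and 50.9, a ratio of 0.832 whose interval (0.562 to 1.23) includes 1. miR-23a-5p was listed at 4.0 in WT and 7.0 in KO, with an interval from 0.442 to 8.11, so neither direction nor size could be read at this depth. Summed, the 23a cluster went from 16934 to 11937.7, a ratio of 0.705 (0.689 to 0.722), which stayed below 1 under each of the 4 scalings and reached 0.851 with equal totals.

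The products of the 23b cluster did not move together. miR-27b-3p (mmu-miR-27b-3p), which made up 90.0% of the cluster's assignable reads in WT and 87.7% in KO, was listed at 141807 and 116645, a ratio of 0.823 (0.816 to 0.829). With equal totals its ratio was 0.993, so its share of the library was nearly the same in both genotypes (2.47% of WT and 2.45% of KO). miR-23b-3p (mmu-miR-23b-3p), from the neighbouring hairpin, was listed at 15555.5 and 16143, a ratio of 1.04 (1.02 to 1.06). It was the only member with an interval wholly above 1, and its ratio ranged from 1.04 to 1.25 over the 4 scalings. Within a library, miR-27b-3p was 9.12 times miR-23b-3p in WT and 7.23 times in KO, a change by a factor of 0.793 (0.774 to 0.811) that no scaling touches. The corresponding ratio of the 23a cluster, miR-27a-3p over miR-23a-3p, was 0.416 in WT and 0.384 in KO, a factor of 0.923 (0.873 to 0.976). miR-27 thus far outnumbered miR-23 among the reads of the 23b cluster, whereas miR-23 outnumbered miR-27 in the 23a cluster, in both genotypes.

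The minor products of the 23b cluster were few. miR-27b-5p was listed at 176.5 in WT and 175.5 in KO, a ratio of 0.994 (0.802 to 1.23). miR-23b-5p was listed at 19.1 and 19.0, with an interval from 0.498 to 1.98. miR-24-1-5p was listed at 60.2 and 29.9, a ratio of 0.497 (0.310 to 0.783) that came to 0.600 with equal totals. It had the lowest ratio of the 11 members and rests on fewer than 100 reads in either library. Summed, the 23b cluster went from 157618.5 to 133012.2, and its ratio of 0.844 (0.838 to 0.850) passed 1 on the scale of equal totals, where it was 1.02. This sum therefore had no direction that held on every scale.

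**Figure D2:**
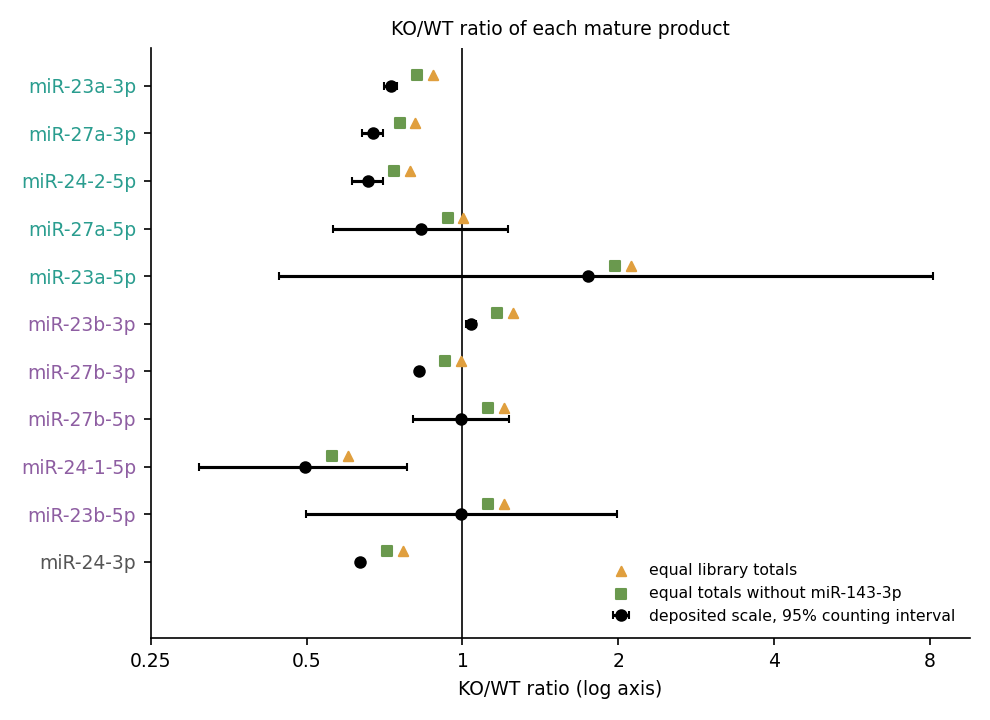
KO/WT ratio of each mature product (log axis), where black points are the deposited scale with 95% counting intervals and coloured marks are the same ratio with equal library totals, with or without miR-143-3p. The 3 abundant products of the 23a cluster and miR-24-3p lie left of 1 on each of these scales, miR-23b-3p lies right of 1, and miR-27b-3p moves from 0.823 to 0.993.

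miR-24-3p (mmu-miR-24-3p), which both clusters make, was listed at 57521 in WT and 36540.3 in KO, a ratio of 0.635 (0.627 to 0.644). It had the lowest ratio of the 6 abundant members, and its share of the library went from 1.002% (0.994 to 1.01%) to 0.769% (0.761 to 0.776%). It stayed below 1 under the 4 scalings, the highest being 0.767. Its ratio was close to that of miR-24-2-5p, which comes from the 23a cluster. Within a library, miR-24-3p was 28.3 times miR-24-2-5p in WT and 27.4 times in KO, a factor of 0.969 (0.902 to 1.04). Against the 3p products of the 23b cluster, miR-24-3p was lower: relative to miR-27b-3p by a factor of 0.772 (0.761 to 0.784), and relative to miR-23b-3p by a factor of 0.612 (0.597 to 0.628). Against miR-23a-3p and miR-27a-3p the factors were 0.874 (0.846 to 0.902) and 0.946 (0.901 to 0.993), nearer to 1. Against miR-24-1-5p, the rare 5p arm from the 23b cluster, the factor was 1.28, and its interval (0.811 to 2.05) includes 1. The 5p arms of miR-24 came mostly from the 23a cluster, since miR-24-1-5p made up 2.88% of them in WT (2.24 to 3.68%) and 2.19% in KO (1.54 to 3.12%). Although miR-27b-3p was 32.5 times miR-27a-3p in WT, miR-24-1-5p was 0.0296 times miR-24-2-5p. The share of miR-24-3p that each cluster supplied was not measured.

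To compare the clusters directly, each product of the 23b cluster was set against its counterpart of the 23a cluster within the same library. For miR-23 the ratio of b to a was 1.48 in WT (1.45 to 1.52) and 2.12 in KO (2.06 to 2.18), a rise by a factor of 1.43 (1.38 to 1.48). miR-23b-3p thereby went from 59.8% to 67.9% of the miR-23 reads. For miR-27 the ratio was 32.5 in WT (31.5 to 33.5) and 39.8 in KO (38.4 to 41.3), a factor of 1.22 (1.17 to 1.28). Because miR-27a-3p is so rare beside its paralog, miR-27b-3p went only from 97.0% to 97.6% of the miR-27 reads. For the 5p arms of miR-24 the ratio was 0.0296 in WT (0.0225 to 0.0383) and 0.0224 in KO (0.0151 to 0.0322), a factor of 0.757. That interval (0.469 to 1.20) includes 1, so at this depth miR-24 did not show a shift in either direction. The rare 5p arms of miR-27 and miR-23 gave factors of 1.20 (0.764 to 1.88) and 0.568 (0.106 to 2.73), which also include 1. Over all assignable products, the 23b cluster was 9.31 times the 23a cluster in WT and 11.1 times in KO, a factor of 1.20 (1.17 to 1.23). The sums differ in make-up: in WT, miR-27b-3p made up 90.0% of the 23b sum and miR-23a-3p made up 61.9% of the 23a sum. This factor thus largely sets miR-27 against miR-23, and the factors of 1.43 and 1.22 compare like with like.

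**Figure D3:**
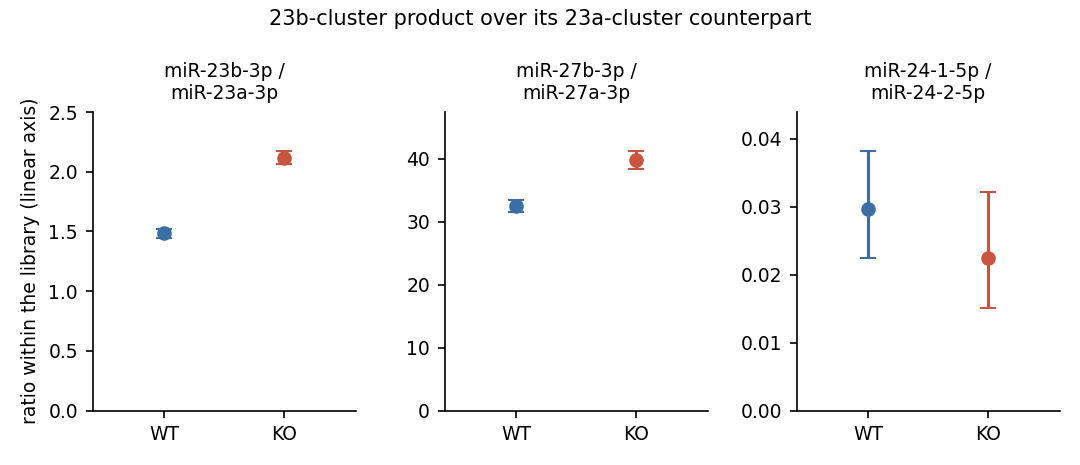
Ratio of each 23b-cluster product to its 23a-cluster counterpart within a library (linear axes from 0, 1 point per library, bars are 95% exact counting intervals). The ratio is higher in KO for miR-23 (1.48 and 2.12) and for miR-27 (32.5 and 39.8), and the intervals overlap for the 5p arms of miR-24.

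A difference of this size between near-identical miRNAs was not unusual in these libraries. Elsewhere in the table, 23 pairs of mature miRNAs with a mean of at least 1000 each differed at no more than 2 bases, among the 116 of 136 such entries with a sequence. Their ratios parted by a median factor of 1.31, from 1.01 (miR-30a-5p and miR-30e-5p) to 2.86 (miR-10a-5p and miR-10b-5p). Of the 23 pairs, 14 were wider than the miR-27 pair and 8 were wider than the miR-23 pair. The let-7 family supplied 14 of the 23, so these pairs are not independent. How reads that match both members of a pair were counted is not given in the sources used here. The single base by which the miR-27 paralogs differ is base 19 of 21.

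Summed by seed, the 3p products of miR-27 went from 146168.5 to 119573.8, a ratio of 0.818 (0.812 to 0.824). The miR-23 3p products went from 26030.6 to 23760.6, a ratio of 0.913 (0.897 to 0.929), and miR-24-3p stood at 0.635 as given above. The 3 seeds of the clusters thus differed in their ratios beyond counting error, with miR-24 lowest. With equal totals the ratios were 1.10 for miR-23, 0.988 for miR-27 and 0.767 for miR-24-3p, so miR-23 changed its side of 1 while miR-27 and miR-24-3p stayed below it.

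**Figure D4:**
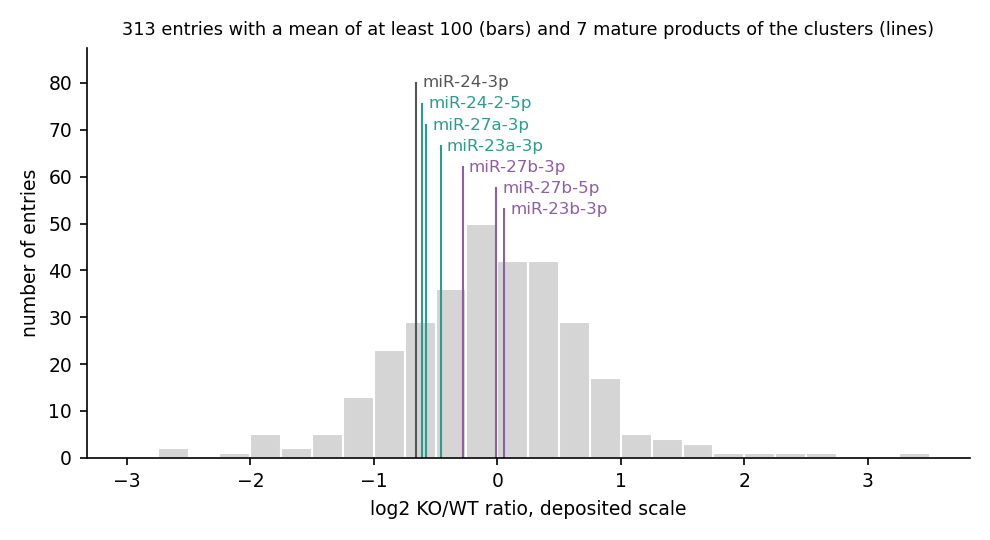
Histogram of the log2 KO/WT ratio (deposited scale) of 313 entries with a mean of 100 or more that were above 0 in both libraries, with vertical lines at the 7 members of that abundance. The lines lie from -0.65 for miR-24-3p to 0.053 for miR-23b-3p, within the bulk of the bars.

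Among those 313 entries, 62 had a lower ratio than miR-24-3p, and 65, 67 and 88 had a lower ratio than miR-24-2-5p, miR-27a-3p and miR-23a-3p. There were 107 entries below miR-27b-3p, 165 below miR-27b-5p and 171 below miR-23b-3p. The SD of the log2 ratio over the 313 entries was 0.76, and the quartiles were -0.50 and 0.38. The 3 abundant products of the 23a cluster and miR-24-3p thus lay near or below the lower quartile, and those of the 23b cluster lay between the quartiles.

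The arms were compared next, since both arms of a hairpin come from the same precursor. The 3p arm was the major product of every hairpin that could be assigned. The 5p arm made up 0.0382% of the miR-23a reads in WT (Wilson interval 0.0149 to 0.0984%) and 0.0918% in KO (0.0444 to 0.189%). For miR-23b it made up 0.123% (0.0783 to 0.191%) and 0.118% (0.0751 to 0.183%). For miR-27b it made up 0.124% (0.107 to 0.144%) and 0.150% (0.130 to 0.174%). miR-27a kept more of its 5p arm, 1.38% (1.08 to 1.77%) and 1.71% (1.30 to 2.24%), above miR-27b in either library with intervals that did not overlap. miR-24, whose 3p product was pooled over both hairpins, had the largest 5p share, 3.51% (3.37 to 3.66%) and 3.60% (3.41 to 3.79%). For each of these 5 names the intervals of WT and KO overlapped, so no change in arm use was detectable at this depth. As a factor between genotypes, the 3p to 5p ratio changed by 0.827 (0.667 to 1.03) for miR-27b and by 0.807 (0.546 to 1.20) for miR-27a. Over the 130 other hairpins whose arms both had a mean of at least 10, the arms' ratios parted by a median factor of 1.47.

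**Figure D5:**
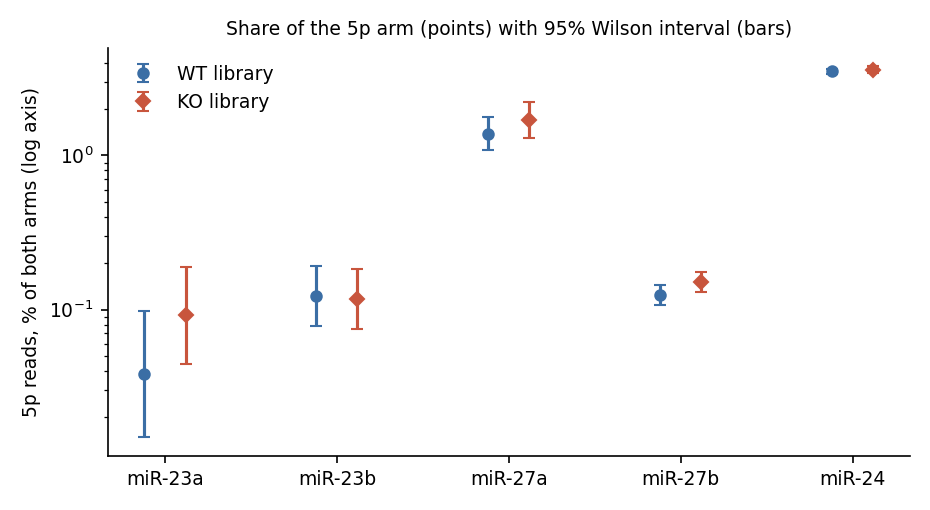
Share of the 5p arm among the reads of both arms (percent, log axis) in the WT and the KO library, with 95% Wilson intervals for counting error. The shares run from 0.0382% for miR-23a in WT to 3.60% for miR-24 in KO, and the bars of the genotypes overlap for each name.

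Markers of the cell types in the wall moved between the libraries as well. All 4 miRNAs of the smooth muscle list (miR-143-3p, miR-145a-5p, miR-133a-3p and miR-1a-3p) were lower in KO, with ratios from 0.295 to 0.694, and their sum went from 38.1% to 30.2% of the library. Of entries averaging at least 10, 47.9% were lower and 51.6% were higher, or 34.1% and 65.9% with equal totals. Of the 5 leukocyte miRNAs, 5 were higher, and their sum went from 1675.7 to 4843. Of the 5 endothelial miRNAs, 4 were higher, with miR-126a-3p, the product of the endothelial gene *Egfl7*, at a ratio of 1.27 (1.23 to 1.32), while miR-130a-3p stood at 0.630 (0.617 to 0.644). The endothelial sum, of which miR-130a-3p was the largest member in either library, went from 34609 to 31718, but its share of the library went from 0.603% to 0.667%, so its direction depended on the scale. Of the 4 red cell miRNAs, 4 were higher, and their sum went from 12745 to 47217, nearly all of it miR-486a-5p (12592 and 46756). The sum therefore describes miR-486a-5p rather than the list, and is no measure of red cell content. miR-451a was listed at 141.4 and 420.8, and miR-144-3p at 2 and 20.9. The interval of miR-144-5p, at 10 and 19, includes 1. Of the 8 epithelial miRNAs, 4 were higher and 4 were lower on the deposited scale, and 8 were higher with equal totals. Their sum went from 14503 to 18129, mostly through miR-192-5p, which went from 4619 to 8271.5. The skeletal and cardiac muscle list had 3 of its 4 miRNAs in the table, with miR-206-3p not listed, miR-208a-3p at 0 in WT and 1 in KO, and miR-208b-3p going from 992.8 to 301.2. The part of these shifts in the members' ratios was not tested.

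Other miRNAs known from vessel growth or fat cell formation were set beside the members. All 16 were in the table, with 7 higher and 9 lower in KO and a median log2 ratio of -0.21, beside 0.015 over entries averaging at least 10. At that abundance 51.6% of entries were higher and 47.9% were lower. On the deposited scale, the only one with a change of at least 2-fold was miR-17-5p, a member of the growth-promoting miR-17-92 cluster, which went from 1322 to 383.9, a ratio of 0.290 (0.259 to 0.326). Of entries averaging at least 10, 9.94% were at least 2-fold lower, and 11.4% were at least 2-fold higher, as none of the list was. With equal totals, 4 of the list (miR-221-3p, miR-222-3p, miR-132-3p and miR-296-5p) were at least 2-fold higher, as were 19.5% of such entries. On that scale miR-17-5p was again the 1 that was at least 2-fold lower, as were 5.34% of such entries. miR-221-3p and miR-222-3p, which restrain Kit and cell cycle inhibitors, stood at 1.75 (1.63 to 1.88) and 1.67 (1.51 to 1.86), above each of the 6 abundant members. miR-378a-3p, from the metabolic gene *Ppargc1b*, stood at 0.541 (0.534 to 0.548), below each member except miR-24-1-5p. miR-103-3p and miR-107-3p, which act on insulin signalling, stood at 0.780 (0.759 to 0.800) and 0.584 (0.535 to 0.635). On the deposited scale these lay on either side of the 23a cluster, at 0.705. With equal totals 8 of the 16 were higher and 8 were lower. On that scale 65.9% of entries averaging at least 10 were higher and 34.1% were lower. The list went both ways. Of its miRNAs, 5 are also on the endothelial list, and miR-143-3p is also on the smooth muscle list.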

How the data were processed

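Small RNA was sequenced from 1 library per genotype. Libraries were made, according to the labels and methods, with the Illumina TruSeq Small RNA kit and a commercial provider analysed the reads against GRCm38/mm10; the submitters' processing notes name Bowtie. The release of the miRNA database, the scaling and what was done with multiply matching reads are not given in the sources used here. The deposited values are read counts, each library scaled by its own factor and rounded to 1 decimal, as the values themselves show: from 20 to 300, 86.9% of 229 WT values were whole multiples of 1.00286 within 0.05, and 89.1% of 248 KO values were whole multiples of 0.99723. Dividing by these steps gave the reads (5725560 and 4767884) behind each interval. A column with the authors' own fold change was not used.

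KO/WT ratios carry exact (Clopper-Pearson) intervals of the KO share of both libraries' reads. Ratios of ratios carry exact conditional odds ratio intervals, and shares carry Wilson intervals (SciPy 1.17.1, pandas 2.3.3, Python 3.11.15). A value of 0 allows up to 3 reads. With 1 library per genotype no test was possible. The interval and step calculations were tested on simulated data. Cluster sums left out miR-24-3p. Alternatives were 3 other library scales, a pseudocount of 1, a minimum mean of 100, divisions of miR-24-3p and single arms or products. Every member is named. Other miRNAs came from fixed lists, or were taken by likeness of sequence, by position near the clusters or by the nearest ratio. The members and lists were chosen with earlier results of these data known. Sequences are from RefSeq and positions from GENCODE M21.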

Additional observations from a re-analysis of the deposited data

How the results depend on the processing

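With equal library totals, the ratio of the 23b cluster turned from 0.844 to 1.02, and those of the 23a cluster and miR-24-3p moved from 0.705 to 0.851 and from 0.635 to 0.767. With equal totals without miR-143-3p these 3 ratios were 0.950, 0.794 and 0.715, and with the median of entries with a mean of at least 100 set to 1 they were 0.864, 0.722 and 0.651. Dividing miR-24-3p evenly between the clusters gave 0.661 for the 23a cluster and 0.812 for the 23b cluster. Dividing it by the 5p arms of miR-24 in each library gave 0.655 for the 23a cluster and 0.840 for the 23b cluster. That division takes the 3p reads to follow the 5p reads, which was not tested. It leaves the 23b cluster 2.88% of miR-24-3p in WT and 2.19% in KO. The change of the 23b to 23a ratio, 1.20, became 1.23 with miR-24-3p divided evenly and 1.43 with miR-23 products only. Instead of 2 members, 5 were higher in KO with equal totals, 4 with equal totals without miR-143-3p, 4 with the centred median and 1 at a mean of at least 100. Of all entries, 50.3% were higher on the deposited scale and 63.2% with equal totals. At a mean of at least 100, 47.5% of entries were higher on the deposited scale. Each scale moves all entries by the same factor, and this share is not given for the remaining scales. The median of the vascular and adipose list, -0.21, became 0.067 with equal totals and -0.034 with equal totals without miR-143-3p. Of the 11 members, 6 stayed below 1 and 2 above 1 under the 4 scalings, and miR-27a-5p, miR-27b-5p and miR-23b-5p lay on both sides. Of the 2 above 1, miR-23a-5p has no readable direction, since its interval on the deposited scale (0.442 to 8.11) includes 1. How many of all entries kept their side was not counted, so these member counts have no background to be read against. The shifts between settings follow from the factors themselves and from which reads were summed. No paired analysis was possible because each genotype had 1 library, and for the same reason no replicate could be left out. Depth limits the 5p arms: miR-23a-5p, miR-27a-5p, miR-23b-5p and miR-24-1-5p rest on fewer than 100 reads, and their intervals span more than 2-fold.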

Other observations

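The hairpins nearest to the clusters were read for comparison. Mir181c and Mir181d lie before Mir23a on chromosome 8, on the opposite strand and in an intron of *Nanos3*, with 29556 bases between Mir181c, the nearer of them, and Mir23a. miR-181c-5p was listed at 23510.5 in WT and 25485 in KO, a ratio of 1.08 (1.06 to 1.10), and miR-181d-5p at 9879.5 and 5851, a ratio of 0.592 (0.573 to 0.612). Products of these adjoining hairpins thus lay on both sides of the 23a cluster's ratio of 0.705. miR-3074-5p, which the hairpins antisense to Mir24-1 and Mir24-2 share, was listed at 2 in WT and 6 in KO, and miR-3074-1-3p at 6 and 10, both with intervals that include 1. These mature entries were rare beside miR-24-3p, at 57521 and 36540.3.

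Other abundant miRNAs had nearly the same ratios. Among 130 other entries with a mean of at least 1000, those nearest to the 23a cluster were miR-181a-5p (0.705), let-7d-5p (0.705) and miR-872-5p (0.707), and 11 lay within 0.1 log2 units. Nearest to the 23b cluster were miR-22-3p (0.837), miR-320-3p (0.835) and miR-361-5p (0.858), with 17 within that distance. Nearest to miR-24-3p were miR-497a-5p (0.634), miR-382-5p (0.639) and miR-130a-3p (0.630), with 10 within it. A likeness over 2 libraries rests on a single ratio per miRNA.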
